A study of Mus musculus with 16 samples.

Results

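The genes described here are the MHC class II genes of the mouse, the invariant chain gene Cd74 and the class II regulators Ciita and Rfxank. Members were the array features, control spots left out, whose gene name was Cd74 (older name Ii), H2-Aa, H2-Ab1, H2-Eb1, H2-DMa, H2-DMb1, Ciita or Rfxank. This rule found 11 probes for 7 of the 8 genes, among 41174 probes and 27962 gene names on the array. H2-Ab1 had 4 probes, H2-Aa had 2, and Cd74, H2-Eb1, H2-DMa, H2-DMb1 and Rfxank had 1 each. Ciita carries an older symbol, C2ta, in the files, so the rule found no feature for it. Its 1 probe was matched through its transcript record and is described beside the others.

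The arrays measured total RNA of the lumbar spinal cord of 40 days old and 80 days old SOD1G93A mice, and of age matched wild-type mice without the transgene. All groups shared the B6SJL background, and per the methods all mice were male, SOD1G93A mice carried many copies of the mutant human SOD1 gene and both ages lie before symptoms. Each of the 16 arrays, 4 biological replicates per group, carried 1 spinal cord sample in Cy3 and a common reference in Cy5, a pool of organs of neonatal B6SJL mice of both genotypes (heart, kidney and liver, per the methods). Values are log2 ratios of spinal cord over reference after normalization. The transgene is human, so the 3 probes of mouse Sod1, with log2 ratios between -0.12 and 0.30 on all arrays, check nothing about the genotype labels.

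MHC class II molecules present peptides taken up from outside the cell to CD4 T cells. H2-Aa and H2-Ab1 encode the alpha and beta chains of the I-A molecule, and H2-Eb1 encodes the beta chain of I-E. The invariant chain, Cd74, holds the new class II dimer and guides it to the endosome, and the H2-DM dimer of H2-DMa and H2-DMb1 then exchanges the last fragment of the invariant chain for a peptide. Transcription of these genes depends on the RFX complex, of which Rfxank is a subunit, on NF-Y and CREB proteins, and on the coactivator Ciita, which interferon gamma induces. In the healthy spinal cord, class II is carried mainly by macrophages and dendritic cells of the meninges and perivascular spaces, and little of it by resting microglia.

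The promoters show the letters through which this machinery is known to act, so those of the class II members held by the RefSeq table (GRCm38.p6) are printed here, as the 150 bases before the annotated start, 5′ to 3′. Capitals mark the Y box core TGATTGG, bound by NF-Y, the X box letters, GCAACTGATG or GTAACTGATG with any base allowed at the second and the sixth place, bound by the RFX complex, and the palindrome TGACGTCA, bound by CREB proteins. These motifs were chosen after the sequences were read, were searched on both strands and do not overlap each other here.
H2-Eb1 (chr17:34305717-34305866, plus strand): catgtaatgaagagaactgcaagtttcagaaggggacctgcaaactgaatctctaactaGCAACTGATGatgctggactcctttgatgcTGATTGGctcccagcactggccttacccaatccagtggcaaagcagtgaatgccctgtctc
H2-DMb1 (chr17:34153041-34153190, plus strand): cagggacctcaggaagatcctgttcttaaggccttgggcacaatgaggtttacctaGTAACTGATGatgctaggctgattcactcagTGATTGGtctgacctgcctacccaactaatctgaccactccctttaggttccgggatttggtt
H2-Aa (chr17:34287824-34287973, minus strand): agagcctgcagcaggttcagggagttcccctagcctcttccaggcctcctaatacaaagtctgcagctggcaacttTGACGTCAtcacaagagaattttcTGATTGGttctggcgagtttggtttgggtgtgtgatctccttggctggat
The X letters ended 20 bases before the Y box in H2-Eb1 and 21 bases before it in H2-DMb1. In H2-Aa the X letters were not found, and the palindrome ended 16 bases before the Y box. Of 32851 mouse promoters, searched over the 250 bases before the start, 7.23% held the Y box core, 0.682% the X letters and 1.55% the palindrome, while 23 promoters, or 0.07%, held both the X letters and the Y box core. Neither of the 2 annotated starts of H2-DMa nor that of Rfxank held any of these letters.

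The probes that gave the values are oligonucleotides of 60 bases, and positions are those of the files, in mm7. The H2-Aa probe A_52_P343306 lies at chr17:32362310-32362369 on the minus strand. Of the H2-Ab1 probes, A_51_P215242 lies at chr17:32342603-32342662, A_51_P215237 at chr17:32345268-32345327 and A_52_P683598 at chr17:32346939-32346998, all on the plus strand, and A_52_P570717 has no position in the files, as is the case for A_51_P119760 of H2-Aa. H2-DMb1 was measured at chr17:32236685-32236744 on the plus strand. The probes of H2-DMa (chr17:32217439-32218002, plus strand), H2-Eb1 (chr17:32392430-32392891, plus strand) and Rfxank (chr8:68589867-68590286, minus strand) each span 564, 462 and 420 genomic bases and so cross from one exon into another. Their sequences are given because the tests below that passed the threshold came from these 3 probes and 1 of H2-Ab1.
H2-DMa A_51_P473734: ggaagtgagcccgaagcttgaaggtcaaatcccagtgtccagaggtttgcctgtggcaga
H2-Eb1 A_51_P393226: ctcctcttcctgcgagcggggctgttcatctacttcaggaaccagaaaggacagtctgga
Rfxank A_52_P484838: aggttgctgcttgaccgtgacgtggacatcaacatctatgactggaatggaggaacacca
Another pair of H2-Ab1 probes is shown because both were designed for the same stretch of the gene but do not hold the same letters. They overlap over 31 bases, of which 29 match, and the capitals mark the 2 that differ.
H2-Ab1 A_51_P215242: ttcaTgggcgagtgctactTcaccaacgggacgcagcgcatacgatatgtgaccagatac
H2-Ab1 A_52_P570717: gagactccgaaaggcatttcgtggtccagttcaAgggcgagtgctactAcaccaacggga
The differences are T5A and T20A, counted from 1 at the 5′ end of A_51_P215242, with the base of that probe first. Both probes were close to background in the spinal cord channel, as described next.

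Most class II probes lay near the detection limit of the array in spinal cord. The scanner software marked the Cy3 signal as well above background on all 16 arrays for Rfxank, H2-DMa and H2-DMb1, on 15 for Cd74 and for the H2-Ab1 probe A_52_P683598, and on 11 for H2-Eb1. The other H2-Ab1 probes were well above background on 5, 3 and 2 arrays (A_51_P215237, A_51_P215242 and A_52_P570717), the H2-Aa probes on 3 (A_52_P343306) and 2 (A_51_P119760), and the Ciita probe on 1. Their Cy3 signals ran from 40 to 58 intensity units for H2-Aa A_52_P343306 and from 40 to 48 for Ciita, over local backgrounds of 34 to 40 and 34 to 39. Cd74 ran from 46 to 125 units with a median of 62.2, H2-Ab1 A_52_P683598 from 49 to 135, and Rfxank from 105 to 168, over backgrounds of 33 to 40.

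**Figure D1:**
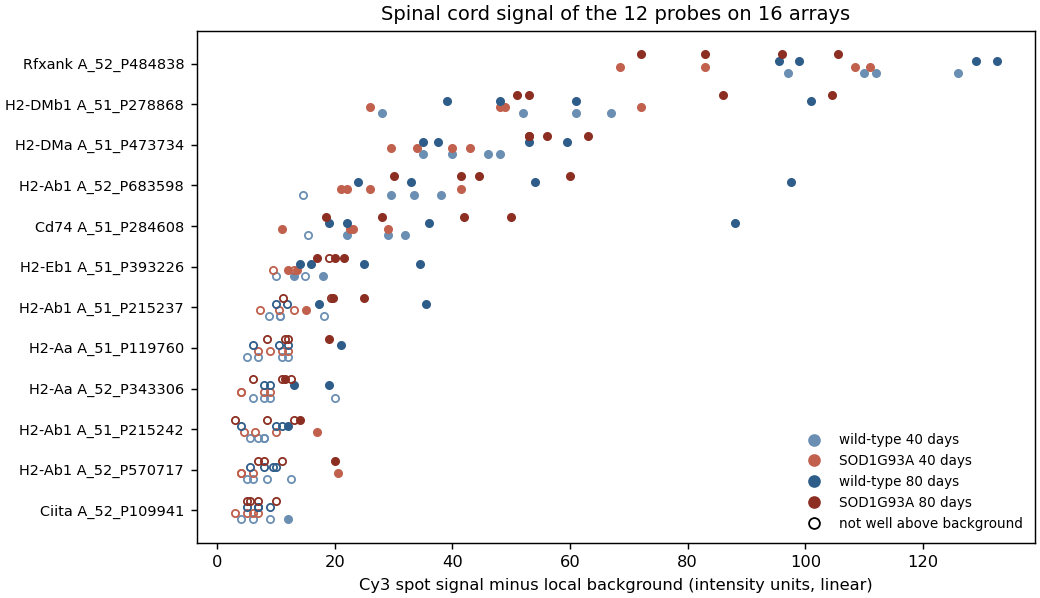
Spinal cord (Cy3) signal minus local background, in linear intensity units (x axis), of the 11 member probes and the Ciita probe (y axis) on the 16 arrays, where colours give the 4 groups and open circles mark signals not well above background. Cd74 reached 88 units above background on wild-type 80 days replicate 1 and was between 11 and 50 on the other arrays, and the Ciita probe was well above background on 1 array. Probes hybridize with different strength, so their order is no order of transcript levels.

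For a test at an age, a Cy3 signal well above background was asked for on 3 or more of the 4 arrays in one genotype, which 5 member probes met at 40 days (Cd74, H2-Ab1 A_52_P683598, H2-DMa, H2-DMb1 and Rfxank) and 6 at 80 days (these and H2-Eb1). The H2-Aa probes, the remaining H2-Ab1 probes and Ciita were not tested at either age and get no fold here. Probes that met this at either age entered the comparisons of ages, H2-Eb1 only through its 80 days arrays. An offset of 50 was added to the background corrected signals, so ratios of probes this dim are drawn toward the offset and changes in them appear smaller than they are. The H2-Ab1 probe A_51_P215237 is spotted 10 times on each array, and the SD of its log2 ratio over these spots was 0.063 in the median array, with a range of 0.033 to 0.15.

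Cd74, whose gene lies on chromosome 18 apart from the class II genes of chromosome 17, overlapped between the genotypes at both ages. At 40 days its log2 ratio was -0.55, -0.36, -0.47 and -1.03 in wild-type replicates 1 to 4, and -0.48, -0.66, -0.77 and -0.71 in SOD1G93A replicates 1 to 4. At 80 days it was 0.16, -0.32, -0.61 and -0.69 in wild-type mice, and -0.19, -0.48, -0.67 and -0.31 in SOD1G93A mice. At each age the SOD1G93A values lay inside the range of the wild-type values, wild-type 80 days replicate 1 was the highest of all arrays and wild-type 40 days replicate 4 the lowest.

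The I-A beta chain gene H2-Ab1, by its probe A_52_P683598, varied in the same way. Its log2 ratio at 40 days was -0.95, -0.56, -0.57 and -1.33 in wild-type mice and -0.67, -1.07, -0.81 and -0.87 in SOD1G93A mice. The 80 days old wild-type mice had 0.10, -0.38, -0.50 and -0.81, and the SOD1G93A mice -0.37, -0.68, -0.64 and -0.52. The SOD1G93A values again lay within the wild-type range at both ages, and the same pair of wild-type arrays was the highest and the lowest. For H2-Eb1, the I-E beta chain gene, the 40 days old mice gave -0.13, -0.09, -0.08 and -0.42 (wild-type) and -0.15, -0.22, -0.18 and -0.22 (SOD1G93A), and the 80 days old mice 0.48, 0.20, -0.08 and -0.08 (wild-type) and 0.11, 0.09, 0.03 and -0.11 (SOD1G93A). The genotypes overlapped at both ages, and wild-type 80 days replicate 1 was once more the highest array. H2-Eb1 was not tested at 40 days, when its signal was near background. For the alpha chain gene H2-Aa, whose probes were near background, log2 ratios over all arrays lay between -0.36 and 0.29 for A_52_P343306 and between -0.34 and 0.29 for A_51_P119760.

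The H2-DM genes, whose products load peptides, were above background on every array. H2-DMa had log2 ratios of 0.68, 0.61, 0.50 and 0.54 in 40 days old wild-type mice and of 0.55, 0.55, 0.38 and 0.48 in SOD1G93A mice of that age. At 80 days the wild-type mice had 0.90, 0.70, 0.55 and 0.46, and the SOD1G93A mice 0.76, 0.75, 0.85 and 0.89. The genotypes overlapped at each age, but all 4 of the 80 days old SOD1G93A mice were above all 4 of the 40 days old SOD1G93A mice. H2-DMb1 gave -0.60, -0.51, -0.48 and -1.35 (wild-type) and -0.55, -0.87, -1.07 and -0.79 (SOD1G93A) at 40 days, and -0.18, -0.80, -0.32 and -0.94 (wild-type) and -0.29, -0.71, -0.65 and -0.18 (SOD1G93A) at 80 days. These values overlapped between genotypes and between ages, and the lowest was again wild-type 40 days replicate 4. Wild-type 80 days replicate 1 was the highest array for both H2-DM genes by a small margin over SOD1G93A 80 days replicate 4. The values were 0.898 against 0.886 for H2-DMa and -0.179 against -0.181 for H2-DMb1.

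Rfxank, the ankyrin repeat subunit of the RFX complex, was the one tested member that passed the threshold between genotypes at 80 days, as lower in SOD1G93A mice. Its log2 ratio at 40 days was 0.21, 0.18, 0.36 and 0.27 in wild-type mice and 0.27, 0.19, 0.04 and -0.13 in SOD1G93A mice. At 80 days it was 0.44, 0.19, 0.39 and 0.50 in wild-type mice and 0.11, 0.25, -0.09 and -0.11 in SOD1G93A mice. The 5 lowest arrays were SOD1G93A arrays, replicates 3 and 4 at 40 days and replicates 1, 3 and 4 at 80 days, and the genotypes overlapped at 80 days only through replicate 2, where the SOD1G93A value was above the wild-type value.

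**Figure D2:**
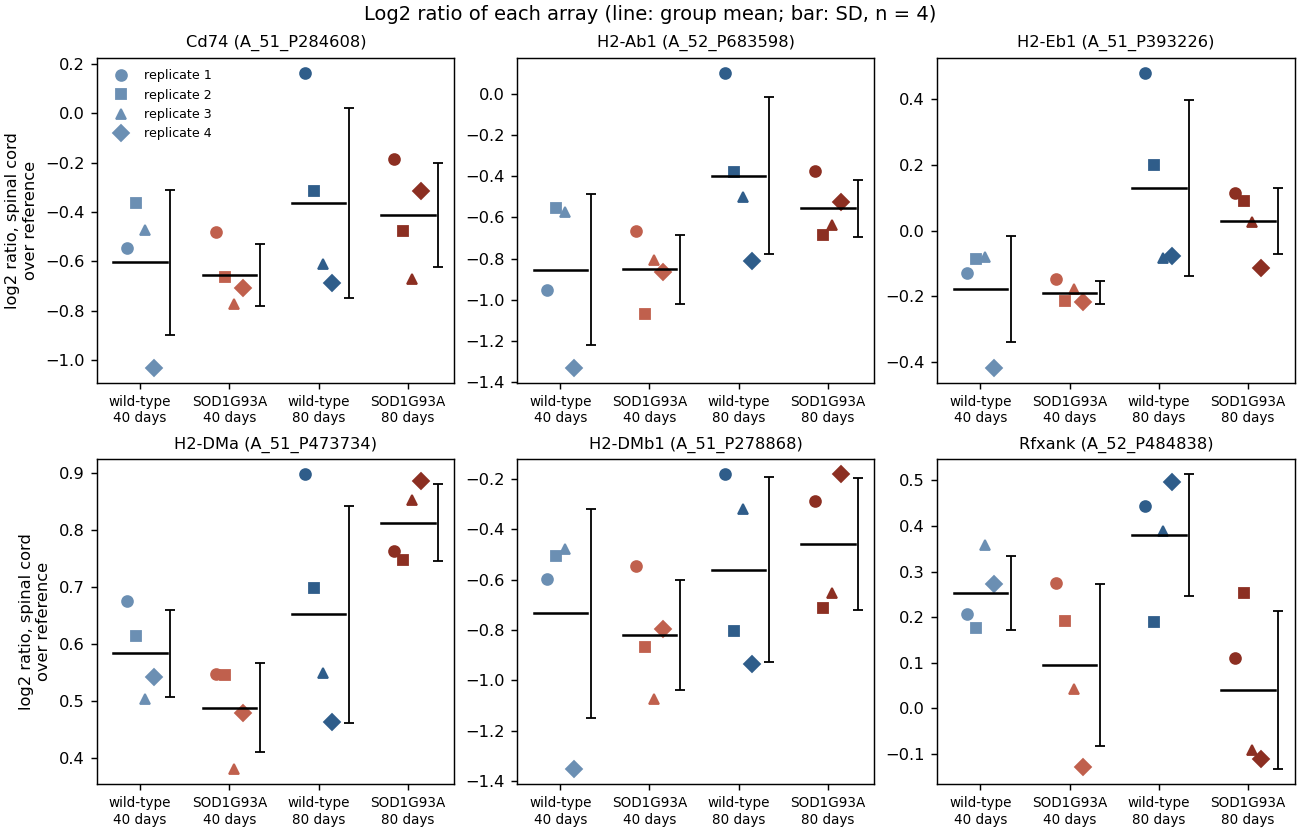
Log2 ratio of spinal cord over reference (y axis, 1 scale per panel) of the 6 tested member probes on each array, by group (x axis; marker shape gives the replicate number, lines are group means, bars are SD, n = 4). Wild-type 80 days replicate 1 is highest for Cd74, H2-Ab1 and H2-Eb1 and, by a small margin, for H2-DMa and H2-DMb1. Wild-type 40 days replicate 4 is lowest for Cd74, H2-Ab1, H2-Eb1 and H2-DMb1, and the SOD1G93A groups of H2-DMa do not overlap between ages.

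At 40 days, comparison of SOD1G93A with age matched wild-type mice found no member up or down regulated. The paper, after its own processing, lists Rfxank as down regulated at both ages. Of the 5 tested members, 0 passed an unadjusted two-sided limma p under 0.05, the threshold of the study's methods, while 4.47% of all 21338 tested probes did, and 0% passed after Benjamini-Hochberg adjustment. On the log2 scale the change in SOD1G93A mice was 0.0007 for H2-Ab1 (95% confidence interval -0.36 to 0.36), -0.05 for Cd74 (-0.35 to 0.24) and -0.09 for H2-DMb1 (-0.51 to 0.33). H2-DMa differed by -0.10 (-0.23 to 0.04, limma p = 0.152, exact permutation p = 0.171) and Rfxank by -0.16 (-0.35 to 0.04, limma p = 0.103, exact permutation p = 0.2). With 4 arrays against 4, the smallest p an exact two-sided permutation test can give is 0.0286. The median change of the 5 members was -0.09, against 0.003 over all tested probes. Without wild-type 40 days replicate 4, Cd74 (-0.19) and H2-DMb1 (-0.29) passed the limma threshold as down regulated, and without SOD1G93A 40 days replicate 1 Rfxank passed it (-0.22).

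At 80 days Rfxank was down regulated in SOD1G93A mice and no other tested member passed the threshold. The mean log2 ratio of Rfxank was 0.38 ± 0.13 (SD, n = 4) in wild-type mice and 0.04 ± 0.17 (SD, n = 4) in SOD1G93A mice, a difference of -0.34 (SE 0.098, limma p = 0.0059, adjusted p = 0.654, exact permutation p = 0.0571). It was lower in the SOD1G93A sample on 3 of the 4 slides, each of which holds 1 replicate of every group, with within-slide differences of -0.34, 0.06, -0.48 and -0.61. Every group held the same place on each slide, so place and group cannot be told apart. Over all 21603 probes tested, 6.86% passed the unadjusted threshold, 3.12% as lower in SOD1G93A mice, and 0% passed after adjustment, and of the 6 members 1 passed. Groups did not overlap for 4.31% of the tested probes and for 0 of the 6 members. H2-DMa differed by 0.16 (95% confidence interval -0.05 to 0.37, limma p = 0.113, exact permutation p = 0.171). The other changes were 0.10 for H2-DMb1 (-0.30 to 0.50), -0.05 for Cd74 (-0.44 to 0.34), -0.10 for H2-Eb1 (-0.37 to 0.17) and -0.16 for H2-Ab1 (-0.52 to 0.21), with exact permutation p between 0.514 and 0.886. With intervals of this width, equal levels in the genotypes are not shown for these 5 genes. The median of the 6 members was -0.07, against -0.001 over all tested probes. Rfxank passed the threshold under each of the 24 alternative settings tried, and without wild-type 80 days replicate 1 H2-DMa passed it as well (0.24).

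**Figure D3:**
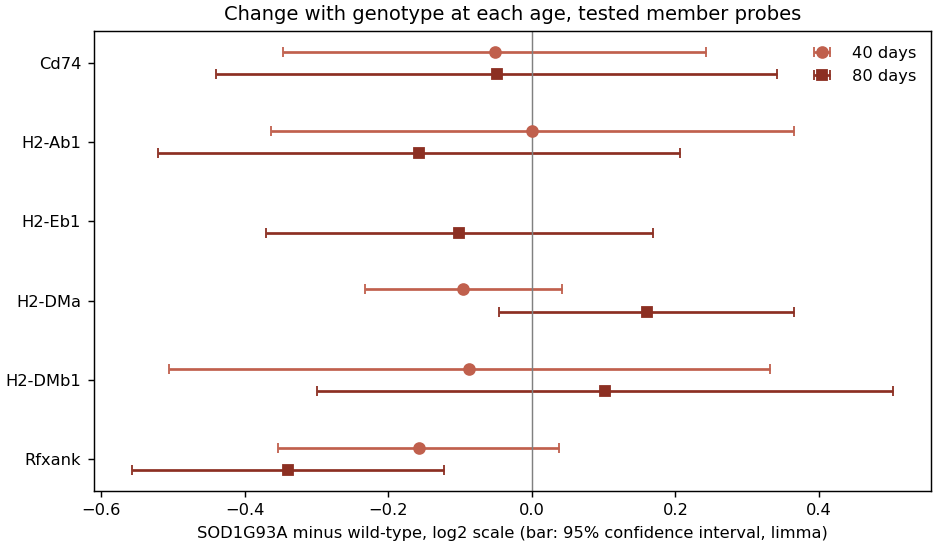
Change with genotype, SOD1G93A minus wild-type on the log2 scale (x axis), of the tested members (y axis) at 40 and at 80 days, with 95% confidence intervals from limma (4 arrays per group). The interval of Rfxank at 80 days (-0.56 to -0.12) is the one that leaves out 0, and H2-Eb1 was tested at 80 days only.

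Whether the genotype change of a member differed between the ages was tested on all 16 arrays. H2-DMa changed by -0.10 at 40 days and by 0.16 at 80 days, a difference between ages of 0.26 (SE 0.113, limma p = 0.0375, adjusted p = 0.734, exact permutation p = 0.0412, over 4900 relabellings within ages). Across 21953 probes 6.68% passed the unadjusted threshold, 3.11% as higher at 80 days, and 0% after adjustment, and of the 6 members 1 passed. For Rfxank the difference was -0.18 (95% confidence interval -0.47 to 0.11, exact permutation p = 0.368), so a larger change at 80 than at 40 days is not shown. The H2-DMa difference no longer passed under 6 other settings of the processing or of the set of arrays (values of 0.10 to 0.28). It was also lost when any of 8 single arrays was left out.

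In wild-type mice all 6 tested members had a higher mean at 80 than at 40 days, and 2 were up regulated by the threshold. H2-Ab1 rose by 0.46 (SE 0.178, limma p = 0.0209, adjusted p = 0.233, exact permutation p = 0.143) and H2-Eb1 by 0.31 (SE 0.108, limma p = 0.0112, adjusted p = 0.184, exact permutation p = 0.0571). H2-Eb1 was well above background on 2 of 4 arrays in each 40 days group and on 4 of 4 in 80 days old wild-type mice. It entered this comparison only through the age at which it was higher, so the filter favoured a rise. Of all probes 15.1% passed in this comparison, 6.78% as higher, 1.58% after adjustment, and 7.66% had groups that did not overlap, as was the case for 0 of the 6 members. Cd74 differed by 0.24 (exact permutation p = 0.429), H2-DMb1 by 0.17 (exact p = 0.6), Rfxank by 0.13 (exact p = 0.143) and H2-DMa by 0.07 (exact p = 0.571), and the members' median was 0.21 against 0.01 over all probes. Both calls were lost without wild-type 80 days replicate 1 (H2-Ab1 0.29 and H2-Eb1 0.19), and that of H2-Ab1 without wild-type 40 days replicate 4 (0.30).

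In SOD1G93A mice H2-DMa rose from 0.49 ± 0.08 at 40 days to 0.81 ± 0.07 at 80 days (SD, n = 4 each), a change of 0.32 (SE 0.080, limma p = 0.0009, adjusted p = 0.0615, exact permutation p = 0.0286, the smallest possible). It was higher at 80 days on all 4 slides, by 0.21, 0.20, 0.47 and 0.41. H2-Eb1 also had groups that did not overlap (exact permutation p = 0.0286) but its change of 0.22 missed the limma threshold (p = 0.0604). With the slide, which is also the replicate number, as a block it passed (by limma, adjusted p = 0.236). H2-Eb1 entered this comparison, too, only through its 80 days arrays, which favours a rise. In SOD1G93A mice it was well above background on 2 of 4 arrays at 40 days and on 3 of 4 at 80 days. Here 16.9% of all probes passed, 8.64% as higher, 1.12% after adjustment, and 12.4% had groups that did not overlap, against 1, 1, 0 and 2 of the 6 members. H2-DMb1 differed by 0.36 (exact permutation p = 0.114), H2-Ab1 by 0.30 (exact p = 0.0571), Cd74 by 0.24 (exact p = 0.114) and Rfxank by -0.06 (exact p = 0.686), with a median of 0.27 against 0.01 over all probes. As the same 16 arrays enter both age comparisons and both genotype comparisons, these values are not independent of each other.

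Values of other gene lists over age stand beside these. Of all probes 16.9% passed the threshold in SOD1G93A mice, 8.64% as higher, and 15.1% in wild-type mice, 6.78% as higher. Of the 15 microglia and macrophage genes, 14 were higher at 80 than at 40 days in SOD1G93A mice, 3 of them past the limma threshold (Tmem119, C1qb and C1qc), with a median of 0.32. In wild-type mice 13 of 15 were higher, 2 past the threshold (C1qb and C1qc), with a median of 0.19. The mean log2 ratio of this list was 1.31 on wild-type 80 days replicate 3 and 1.69 on SOD1G93A 80 days replicate 4. It lay between 0.53 and 0.89 on the other 80 days arrays and between 0.54 and 0.72 on those of 40 days. Of the 13 tested MHC class I genes, 13 were higher in SOD1G93A mice, 9 past the threshold, with a median of 0.64, and 12 were higher in wild-type mice, 1 past the threshold (H2-M3), with a median of 0.27. Their part in the age changes of the class II members was not tested.

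Cd74 varied from array to array with the class II genes and not with Rfxank, while pairs of the other members ranged from weak to strong. After each log2 ratio was centred on its group mean, Cd74 and H2-Ab1 had a Pearson correlation of 0.90 over the 16 arrays (Spearman 0.84), Cd74 and H2-Eb1 of 0.85 (0.78), Cd74 and H2-DMb1 of 0.77 (0.78) and Cd74 and H2-DMa of 0.67 (0.54). Without the arrays on which Cd74 was farthest from its group, wild-type 80 days replicate 1 and wild-type 40 days replicate 4, these became 0.80, 0.68, 0.64 and 0.51. H2-Ab1 had a correlation of 0.82 (Spearman 0.76) with H2-Eb1 and of 0.78 (0.70) with H2-DMb1, which became 0.65 and 0.64 without that pair of arrays. Weaker were H2-DMa with H2-Eb1 at 0.62 (Spearman 0.26), H2-DMa with H2-Ab1 at 0.51 (0.29) and H2-DMb1 with H2-Eb1 at 0.49 (0.41), which became 0.37, 0.27 and 0.10. The H2-DM genes, whose products form 1 dimer, had 0.48 (Spearman 0.51), and 0.20 without wild-type 80 days replicates 1 and 4, on which H2-DMa was farthest from its group. Rfxank and Cd74 had a correlation of 0.08 (Spearman 0.04). The arrays share their reference and the slides, and ratios on 1 array share its normalization, so these are descriptions without a test.

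Among 17591 probes well above background on all arrays, the 5 most like Cd74 by this measure were those of Adamts2 (0.94), which encodes a procollagen peptidase, the unnamed transcript TC1500358 (0.92), Aldh1a2 (0.88), a retinoic acid synthesizing enzyme, Uaca (0.87) and Igfbp6 (0.87), an insulin-like growth factor binding protein. The mean log2 ratio of 7 marker genes of meningeal fibroblasts (Col1a1, Col1a2, Col3a1, Dcn, Lum, Pdgfra and Slc6a13) correlated with Cd74 at 0.79 (Spearman 0.77, and 0.64 without the 2 arrays above). That of 8 border macrophage and dendritic cell markers correlated at 0.66 (Spearman 0.64, and 0.53 without them), and that of 15 microglia and macrophage markers at -0.11 (Spearman -0.03, and -0.06 without them). The border list is dim, with 1 of its 12 genes well above background on all 16 arrays. The remaining lists lay between -0.47 (oligodendrocytes) and 0.46 (endothelium), with -0.46 for astrocytes, 0.45 for erythrocytes and 0.37 for motor neurons. In bulk tissue, fewer cells of a type and less RNA per cell cannot be told apart.

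**Figure D4:**
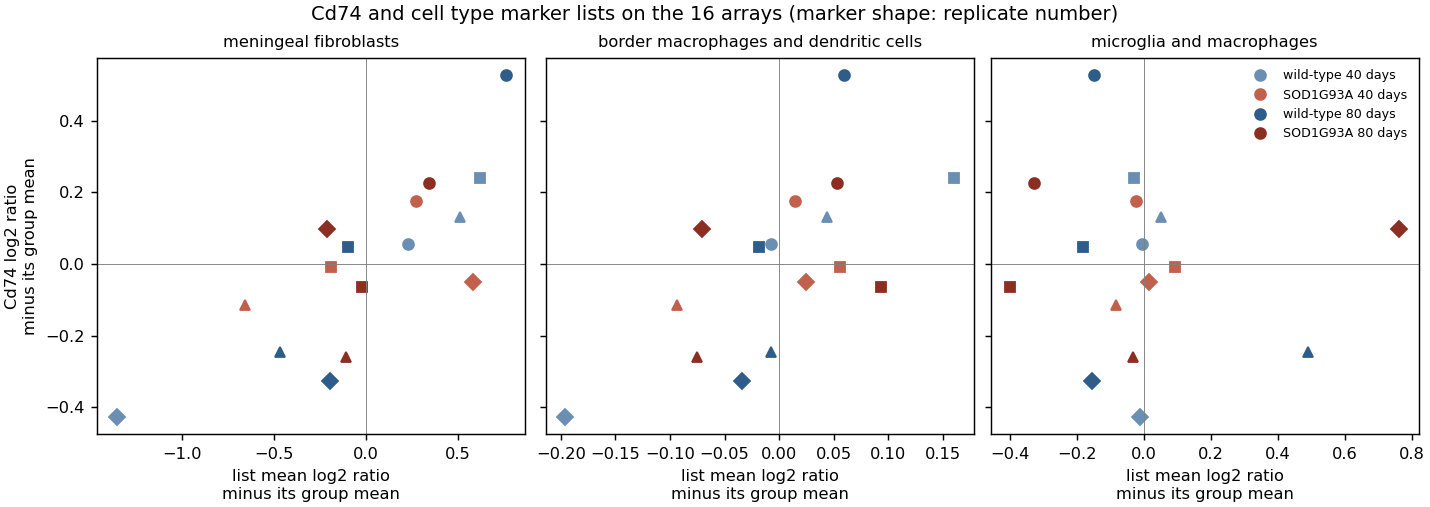
Cd74 log2 ratio (y axis) against the mean log2 ratio of 3 marker lists (x axis), each minus its group mean, on the 16 arrays, with colours for the groups and marker shape for the replicate number. Cd74 follows the meningeal fibroblast list (Pearson 0.79) and the border macrophage list (0.66), with wild-type 40 days replicate 4 at the low end and wild-type 80 days replicate 1 at the high end, and not the microglia list (-0.11).

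The meningeal list had its 2 extremes on the arrays that were extreme for Cd74. Its mean log2 ratio was -3.59 on wild-type 40 days replicate 4 and -1.52 on wild-type 80 days replicate 1, and by group it ranged from -3.59 to -1.62 (wild-type, 40 days), -3.51 to -2.27 (SOD1G93A, 40 days), -2.75 to -1.52 (wild-type, 80 days) and -2.62 to -2.07 (SOD1G93A, 80 days). All 7 of its genes were lower in SOD1G93A mice at 40 days, with a median of -0.66. Of these, 0 of 7 passed the limma threshold, while 4.47% of all probes did. At 80 days 5 of 7 were lower, with a median of -0.06. From 40 to 80 days 3 of 7 were higher in wild-type mice and 5 of 7 in SOD1G93A mice, with medians of -0.17 and 0.31. Past the threshold were Pdgfra in wild-type mice, as lower at 80 days (-0.17, exact permutation p = 0.0857), and Dcn in SOD1G93A mice, as higher (1.34, exact p = 0.0571). This is 1 of 7 in each genotype, near the share over all probes, of which 15.1% (wild-type) and 16.9% (SOD1G93A) passed. Of the 12 border macrophage genes, 8 could be tested. In SOD1G93A mice 7 of these 8 were lower at 40 days, with a median of -0.11. At 80 days 5 of 8 were lower, with a median of -0.10. By the limma threshold Batf3, the only gene above 0 at 40 days, was higher at that age (0.16, exact permutation p = 0.0286). Pf4 was lower at 80 days (-0.26, exact p = 0.0857). Of all probes 4.47% passed at 40 days and 6.86% at 80 days. The border list ranged from -1.61 to -1.26, -1.60 to -1.45, -1.44 to -1.35 and -1.53 to -1.36 in the groups in the order above. The part of these cells in the values of the class II genes was not tested.

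Of the 15 microglia and macrophage genes, 2 complement genes were higher in SOD1G93A mice at 40 days, C1qb (0.29) and C1qc (0.35, both with an exact permutation p = 0.0857), and 0 of 15 passed the same limma threshold at 80 days, where 13 of 15 were above 0 with a median of 0.10. The mean log2 ratio of this list reached 1.31 on wild-type 80 days replicate 3 and 1.69 on SOD1G93A 80 days replicate 4, arrays on which Cd74 was -0.61 and -0.31, and lay between 0.53 and 0.89 on the others. Among B cell markers, Blk and Cd22 were not well above background on any array, and Cd79b (10 arrays) and Ms4a1 (8 arrays) were the 2 tested, with changes between -0.11 and 0.003 in SOD1G93A mice. Of the T cell markers Cd3g, Cd4 and Cd2 were above background on no array. In the lists of other spinal cord cells, 4 of 8 astrocyte and 3 of 8 oligodendrocyte genes were higher in SOD1G93A mice at 40 days by the limma threshold and 1 of 7 endothelial genes was lower, with medians of 0.19, 0.16 and -0.09. Over all probes 4.47% passed at 40 days and 6.86% at 80 days. At 80 days 2 of 8 oligodendrocyte genes were higher, and 1 of 8 astrocyte, 1 of 8 neuronal and 1 of 7 endothelial genes were lower, with medians of 0.06, -0.07, -0.05 and -0.04. No neuronal gene passed at 40 days, and 0 of 6 motor neuron, 0 of 4 erythrocyte and 0 of 6 skeletal muscle genes passed at either age, the last with medians of 0.82 at 40 days and 0.49 at 80 days. The mean log2 ratio of the muscle list was 0.25 on SOD1G93A 40 days replicate 2 and between -2.59 and -1.91 on the other arrays of that group, against -2.78 to -1.76 in the wild-type mice. At 80 days it was -0.83 and -1.11 on SOD1G93A replicates 2 and 4 and -1.07 on wild-type replicate 1, which was the highest array for Cd74, and between -2.62 and -2.498 on the other 5.

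The rest of the class II pathway was held by a list of 25 genes with the members left out. Above background on no array were H2-Ea, the alpha chain that pairs with the product of H2-Eb1, H2-Eb2, the H2-DO genes H2-Oa and H2-Ob, the T cell coreceptor gene Cd4 and Cd80, a costimulatory ligand. At 40 days 16 could be tested and Nfyb, an NF-Y subunit, was up regulated in SOD1G93A mice (0.16, exact permutation p = 0.0571). This is 1 of 16, while 4.47% of all probes passed. At 80 days 0 of 17 passed the limma threshold, 14 of 17 were higher and the median was 0.09. The endosomal proteases at 80 days had changes of 0.12 (Ctsd), 0.13 (Ctsh), 0.16 (Ctsl and Lgmn), 0.17 (Ctsb) and 0.10 (Ctss), and none passed the threshold. With age in SOD1G93A mice 1 of 17 passed as higher and 2 as lower, near the share over all probes, of which 16.9% passed. Ctsh rose by 0.50 (by limma, adjusted p = 0.274), and March8, a ubiquitin ligase that acts on surface proteins, fell by 0.39 (adjusted p = 0.0488) and Creb1 fell by 0.24 (adjusted p = 0.272). In wild-type mice March8 fell by 0.47 (by limma, adjusted p = 0.0139) and Nfyb rose by 0.20 (adjusted p = 0.208). Here 1 of 17 passed as higher and 1 as lower, while 15.1% of all probes passed.

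On the route from interferon gamma to Ciita, Ifng was above background on no array and 0 of the 9 tested genes passed the limma threshold between genotypes at either age, with medians of -0.05 and 0.01. Irf1 differed by -0.12 and 0.14 and Irf8 by 0.0004 and 0.13 at 40 and 80 days. From 40 to 80 days in SOD1G93A mice Irf1, which binds a Ciita promoter, rose by 0.47 (by limma, adjusted p = 0.0398) and the receptor chain Ifngr2 fell by 0.28 (adjusted p = 0.0370). Of the 9 genes, 1 passed the unadjusted threshold as higher and 1 as lower, while 16.9% of all probes passed. The values of MHC class I genes at 80 days stand beside those of class II as follows: 6 of 13 tested genes were up regulated in SOD1G93A mice, H2-D1, H2-Q2, H2-Q7, H2-Q10, H2-T23 and Tap2, by 0.29 to 0.62, with a median of 0.30 over the list, while the class II members had a median of -0.07. Of all probes 6.86% passed at 80 days. The class I probes match closely related genes and are not independent of each other, and the difference between the class I and class II genes was not tested.

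The other subunits of the complex that holds Rfxank did not pass the threshold. Rfx5 changed by 0.01 and 0.09 and Rfxap by -0.05 and 0.05 in SOD1G93A mice at 40 and 80 days (limma p between 0.215 and 0.867). Of the 5 listed genes next to Rfxank on chromosome 8, Nr2c2ap, whose probe is the nearest, had -0.18 and -0.17 (exact permutation p = 0.257 and 0.114), and Sugp1, Ncan, Mef2b and Armc6 had changes from -0.08 to 0.21. At either age 0 of 7 genes of this list passed the threshold, while 4.47% of all probes passed at 40 days and 6.86% at 80 days. The 5 probes most like Rfxank over the 16 group-centred arrays, of 17590 compared, were those of Slc4a1ap (0.88), Stim2 (0.81), Ocel1 (0.81) and both probes of Fam32a (0.81 and 0.80). Slc4a1ap and Stim2 lie on chromosome 5. In SOD1G93A mice at 40 and 80 days Slc4a1ap changed by 0.04 and -0.10 and Stim2 by 0.03 and 0.04 (limma p between 0.303 and 0.615).

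Ocel1 and Fam32a lie 1.25 and 2.16 Mb from the Rfxank probe on the same chromosome, at chr8:69839795-69839997 and from chr8:70745348-70745407 in mm7. On the log2 scale Ocel1 changed in SOD1G93A mice by -0.92 at 40 days and by -1.09 at 80 days, and the Fam32a probe A_52_P549977 by -0.66 and -0.79, all past the limma threshold. Ocel1 did not vary evenly, and its log2 ratio was between -1.15 and -0.95 on SOD1G93A 40 days replicates 3 and 4 and SOD1G93A 80 days replicates 1, 3 and 4, and between 0.10 and 0.82 on the other 11 arrays. Those 5 arrays are the 5 with the lowest Rfxank values, and the Fam32a probe A_52_P549977 was between -0.24 and 0.03 on them and between 0.62 and 1.51 on the others. For A_52_P482124 the ranges nearly met, at -0.08 to 0.17 and 0.19 to 0.93. SOD1G93A replicate 2 at both ages and replicate 1 at 40 days, with Ocel1 at 0.11, 0.10 and 0.10, had Rfxank values of 0.19, 0.25 and 0.27, inside the wild-type range. This comparison of Rfxank with Ocel1 and Fam32a was looked at after their values were seen and has no test.

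Within 5 Mb of Rfxank, a window chosen after its values were seen, 150 probes were tested at 40 days and 23 passed the limma threshold while 4.47% of all probes did, 14 as lower and 9 as higher in SOD1G93A mice. At 80 days 22 of 149 passed, while 6.86% of all probes did, 12 as lower and 10 as higher, with medians over the window of -0.02 and 0.007. Neighbouring genes share this stretch of the chromosome and are not independent, so the shares are given as a description.

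**Figure D5:**
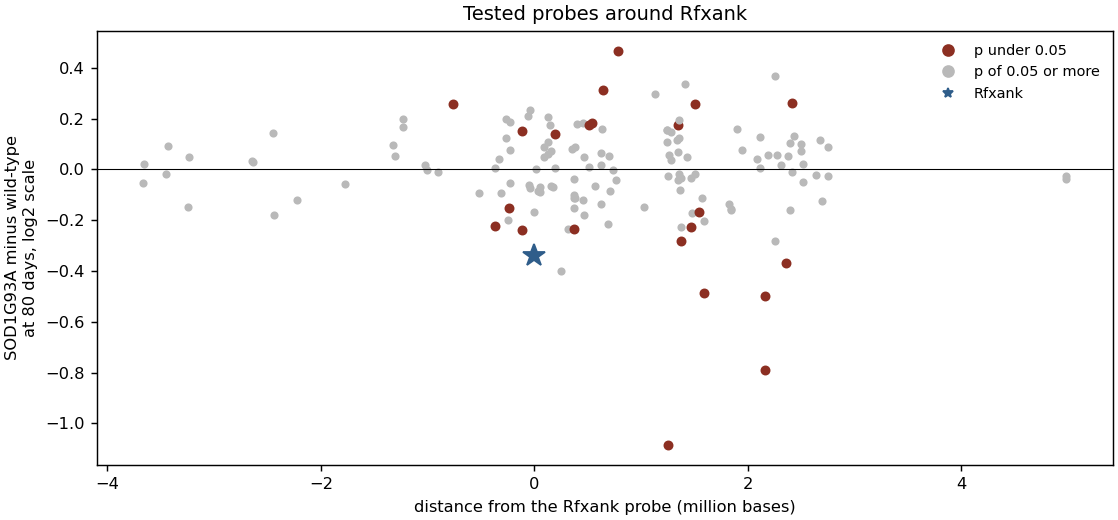
Change with genotype at 80 days, SOD1G93A minus wild-type on the log2 scale (y axis), of the 149 tested probes within 5 Mb of the Rfxank probe (x axis, distance in Mb). Red points passed an unadjusted limma p under 0.05 and the star is Rfxank. The 22 red points lie on both sides of 0, the lowest is Ocel1 (-1.09), and Rfxank is at -0.34.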

How the data were processed

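Lumbar spinal cord RNA of 16 mice was hybridised in Cy3 with a common Cy5 reference, without dye swap, on 4 slides of 4 arrays. The authors extracted the spots with Agilent Feature Extraction (version 9.5.3.1 in the submitters' processing notes); each deposited file holds linear spot intensities without normalization, with the local background and the software's marks for each spot. The authors also deposited a matrix of log2 values, which follow the Cy3 signal (Spearman 0.977 to 0.989 by array) and whose array medians were 6.40 at 40 days and 6.09 to 6.10 at 80 days; whether it was centred by age is not stated in the sources used here. No per-sample column was left without a sample.

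From the median signals, the log2 ratio of Cy3 over Cy5 was taken (R 4.3.3 with limma 3.58.1, statmod 1.5.0 and the package data.table in version 1.17.8). Local backgrounds over 20 units above their spot, found on 3 arrays, were set to the array's median background, since they tilted the ratios; normexp (offset 50), loess for each array and Aquantile scaling across arrays followed. Spots marked as outliers were left out and spots of a probe averaged. Of 41174 probes, 46.1% to 55.3% were well above background in Cy3 by array. The number of arrays, 4 per group, limits the precision.

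Genotypes were compared within an age on 8 arrays and ages on 16, with lmFit and eBayes, at an unadjusted p under 0.05 as in the study's methods, with Benjamini-Hochberg adjustment over all tested probes beside it; exact permutation tests were two-sided. The scripts were tested on simulated data. Members and lists were chosen with earlier results of these data known. Named are all member probes, genes of the pathway lists with a p under 0.05, the 5 probes most like Cd74 and Rfxank, and markers whose values stand beside a result. Lists use 1 probe per gene, the brightest in Cy3. Single values of some list genes are not reported here. Lists of astrocytes, oligodendrocytes, neurons, motor neurons, endothelium, erythrocytes and skeletal muscle were also computed. Alternatives varied the background, the normalization, the filter, the weights, the block and the arrays. Plots used Python 3.11.15 and matplotlib 3.10.9.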

Additional observations from a re-analysis of the deposited data

Results flagged for a closer look

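Within groups of 4 arrays, 3 values of member probes lay farther from their nearest neighbour than Dixon's 95% limit, taken as a share of the group's range, allows. These were the log2 ratios of H2-DMb1 (-1.35) and H2-Eb1 (-0.42) on wild-type 40 days replicate 4, and that of H2-Aa A_52_P343306 (-0.36) on SOD1G93A 40 days replicate 2, where the probe was near background. In all 47 sets of 4 arrays were looked at, of which chance alone marks about 1 in 20, or 2.35. Wild-type 40 days replicate 4 also had the lowest share of probes well above background in Cy3 (46.1%) and the lowest meningeal fibroblast level (-3.59); their part in its class II values was not tested.

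The genotype change of H2-DMa differed between the ages, by 0.26 on the log2 scale (limma p = 0.0375, exact permutation p = 0.0412). No single age passed the threshold, and adjusted over all probes the p was 0.734.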

How the results depend on the processing

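The down regulation of Rfxank at 80 days (-0.34) passed the limma threshold under all 24 alternatives, at -0.43 to -0.22 with p of 0.0017 to 0.0273 and adjusted p of 0.424 or more. Of 125 alternative counts of called members 95 stayed within 1.5 times, and of 714 alternative values of single probes 633 kept their direction and side of the threshold. The cause of the differences below was not tested.

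Counts of called members moved as follows. At 40 days 1 member, Rfxank, was called with mean signals and with the series matrix. For the difference between ages 0 were called with bright local backgrounds kept, processed signals, mean signals, Cy3 alone, the series matrix, or without the 3 arrays with tilted ratios (an alternative chosen after seeing the data). For wild-type mice over age, 1 was called with bright backgrounds kept (H2-Eb1) or without normalization within arrays (H2-Ab1), 4 probes without a filter on dim probes (of H2-Ab1, H2-Aa and H2-Eb1), and 0 with the series matrix or when all arrays had to be above background. For SOD1G93A mice over age 2 were called, H2-DMa and H2-Eb1, with processed signals, array weights and the replicate block. In the series matrix the median of all probes changed with age by -0.13 (wild-type) and -0.14 (SOD1G93A), H2-DMa in SOD1G93A mice by 0.01 (no longer called), and the 1 member called was H2-Eb1, as lower.

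Leaving out each array in turn gave 0 to 2 called members at 40 days, 1 to 2 at 80 days, 0 to 1 for the difference, 0 to 2 for wild-type and 1 to 2 for SOD1G93A mice over age.

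Directions of members turned as follows, all on the log2 scale, and other than H2-Eb1 over age in wild-type mice none of these had passed the threshold. H2-Ab1 at 40 days (0.0007) became -0.00060 with plain subtraction, -0.046 without normalization within arrays and -0.039 with array weights. Without normalization within arrays, changes at 80 days became 0.056 (Cd74) and 0.0030 (H2-Eb1), the H2-Eb1 difference between ages 0.047, H2-DMa over age in wild-type mice -0.084 and Rfxank over age in SOD1G93A mice 0.0086. Array weights gave -0.037 for H2-DMb1 over age in wild-type mice and 0.0018 for Rfxank over age in SOD1G93A mice. The Cd74 difference between ages (0.0026) became -0.030 with bright backgrounds kept, -0.032 without background subtraction, -0.054 with processed signals, -0.081 with Cy3 alone, -0.092 in the series matrix and -0.091 without the 3 tilted arrays, which also gave 0.0094 for Cd74 at 40 days. The series matrix gave 0.00090 for H2-DMb1 at 40 days, over age in wild-type mice -0.12 (H2-Eb1), -0.082 (H2-DMa) and -0.057 (Rfxank), and over age in SOD1G93A mice -0.087 (Cd74), -0.20 (H2-Eb1) and -0.030 (H2-Ab1).

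Among fits without 1 array, ranges that crossed 0 were -0.16 to 0.10 (H2-Ab1) and -0.19 to 0.028 (Cd74) at 40 days, and -0.30 to 0.0100 (H2-Ab1), -0.16 to 0.13 (Cd74), -0.17 to 0.016 (H2-Eb1) and -0.024 to 0.23 (H2-DMb1) at 80 days. For the difference between ages they were -0.30 to 0.0093 (H2-Ab1), -0.11 to 0.18 (Cd74) and -0.16 to 0.026 (H2-Eb1), over age in wild-type mice -0.014 to 0.13 (H2-DMa) and -0.033 to 0.30 (H2-DMb1), and over age in SOD1G93A mice -0.13 to 0.0049 (Rfxank).

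The replicate block changed the calls of the members only for H2-Eb1 over age in SOD1G93A mice. With it the counts were 0, 1, 1, 2 and 2 in the order of the comparisons, and Rfxank at 80 days stayed past the threshold (by limma, adjusted p = 0.608). Each number is 1 slide. Same-numbered samples correlated, in deviations from their group means, at -0.07 to 0.13 (40 days) and -0.002 to 0.20 (80 days) between genotypes, at -0.04 to 0.02 between ages in wild-type mice and at 0.09 to 0.23 in SOD1G93A mice, where 3 of 4 pairs were above 0.1. In no comparison were all 4 above it, so the numbers were not taken as pairs.

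Dim signals limit these data. Of the 11 member probes 5, and Ciita, were too near background to be tested, and the offset shrinks changes of those that were.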
